A study of Mus musculus with 2 samples.

Results

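Genes of DNA replication and S phase were followed in T cells that had divided in the allergic lung. They were a list of 50 symbols chosen by function, all of them found among the 32285 genes counted, and 48 held 50 or more UMIs over both libraries (Gins3 and E2f1 did not). A UMI is the tag of 1 captured RNA molecule. Wild-type donor mice were given house dust mite extract through the airways on day 0 and from day 7 to day 11. On day 14 their lung CD4 T cells, labelled with the division dye Cell Trace Violet, went into hosts that were either C57BL/6 (the WT host) or MARCH1-/- (the MARCH1-/- host). All hosts were challenged with the same extract, and 4 days later donor CD4 T cells low in dye, meaning that they had divided, were sorted from the lung. MARCH1 is a ubiquitin ligase of antigen-presenting cells; the hosts of the second group lacked it, and the donors of both groups were wild-type. The labels do not say how many animals stand behind a library. There was 1 library per host, so each difference between hosts is a difference between 2 libraries, with no test and no replicate check.

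Replication starts when the origin recognition complex, Cdc6 and Cdt1 load the ring of Mcm2 to Mcm7 onto DNA, a step called licensing. Cdc45 and the GINS complex turn that ring into a working helicase, polymerases and primase copy the strands on the Pcna clamp, and Fen1 and Lig1 join the fragments of the lagging strand. Most of these genes are switched on by E2F transcription factors as a cell commits to S phase, so their RNA marks cells in late G1 and S. In T cells they follow activation by antigen, when a clone divides many times within days.

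E2F-type letters stood in promoter windows of 15 of the 42 genes for which windows were found. From these 15 genes, 30-base stretches around matches are printed for 4 licensing genes, 2 further members, and Hells and Rfc3. Hells and Rfc3 were lower in the MARCH1-/- host library (below). Letters searched on both strands were TTTCCCGC, TTTCGCGC, TTTGCCGC and TTTGGCGC; capitals mark them or their reverse complement. In Mcm5 and Mcm6 a pair of matches overlaps on opposite strands, so the capitals there run on.
Mcm5: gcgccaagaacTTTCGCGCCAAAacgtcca
Mcm6: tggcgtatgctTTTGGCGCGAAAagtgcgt
Mcm7: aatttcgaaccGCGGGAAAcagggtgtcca
Cdc6: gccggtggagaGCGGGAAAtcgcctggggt
Pola1: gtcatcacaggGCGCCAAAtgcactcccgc
Uhrf1: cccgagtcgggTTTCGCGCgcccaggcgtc
Hells: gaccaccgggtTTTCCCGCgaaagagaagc
Rfc3: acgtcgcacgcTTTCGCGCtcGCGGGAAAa

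The stretches run 5′ to 3′ on each gene's strand and come from RefSeq promoter windows of build GRCm38.p6. Outside annotated genes lie those of Mcm5 (chr8:75109345-75109374, plus strand), Mcm6 (chr1:128359797-128359826, minus) and Pola1 (chrX:93632275-93632304, minus). Those of Cdc6 (chr11:98908002-98908031, plus) and Uhrf1 (chr17:56304117-56304146, plus) fall in introns of the gene's longest span. Those of Mcm7 (chr5:138172030-138172059, minus), Hells (chr19:38930917-38930946, plus) and Rfc3 (chr5:151651200-151651229, minus) overlap annotated exons of some transcript, and that of Mcm7 also an exon of its neighbour Ap4m1.

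Mcm6 held 3 matches within the 130 bases before its start (chr1:128359706-128359835, minus strand, outside annotated genes), and the stretch is printed because it shows how closely they can sit.
Mcm6 upstream: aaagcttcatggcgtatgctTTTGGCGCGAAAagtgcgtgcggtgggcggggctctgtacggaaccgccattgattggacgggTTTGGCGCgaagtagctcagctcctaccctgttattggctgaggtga

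Over all 32851 windows of 300 bases (250 before to 50 after a gene's start), 2.27% held such letters. Windows were found for 42 of the 50 genes, and 15 of their 50 windows (30%) held them, 6 of these at least 2 matches, overlapping pairs included. Among other replication genes it was 22 of 55 windows (40%), and among G2 and mitosis genes 1 of 36 (2.78%). The reverse held for the letters TTTGAA and TTCGAA, a promoter element of genes that peak in G2, searched on both strands (TTCGAA is its own reverse complement): they stood in 19.2% of all windows, in 18% of the replication and S-phase windows and in 29 of 36 G2 and mitosis windows (80.6%). A match is a description of these letters only.

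In cells from MARCH1-/- hosts the replication and S-phase genes together took a larger share of RNA than in cells from WT hosts. Their summed level was 3194 counts per 1000000 UMIs (CPM; 95% interval 3125 to 3263, from 8211 UMIs) in the WT-host library and 4842 CPM (4734 to 4952, from 7629 UMIs) in the MARCH1-/- host library. The MARCH1-/- host library was 1.52-fold higher (1.47 to 1.56; log2 ratio 0.60). Intervals cover counting error only and treat UMIs as independent, so they are too narrow where a few cells hold many UMIs.

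Among the 48 genes with 50 UMIs or more, 45 were higher and 3 lower in cells from MARCH1-/- hosts (Hells, Pole and Rfc3 being lower), where 68.0% of all genes were higher. At least 1.5-fold higher were 25 of them, against 25.6% of the 6762 genes with as many UMIs, and at least 1.5-fold lower were 0, against 8.3%. The interval lay above no difference for 35 genes and below it for 1, Hells. The same count over all genes was not made, so the 35 genes are not set against a share of all genes. The median gene of the whole table was itself at a log2 ratio of 0.25, and the median replication and S-phase gene was at 0.62, or 0.37 relative to it. Relative to the median gene, 40 of 48 were higher; Rfc1, Nasp, Prim2, Slbp and Gins1 changed sides.

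The libraries held 3753437 and 1934068 UMIs, and their cells had medians of 6086 and 8017 UMIs and 1978 and 2514 genes. No cell barcode was shared. Over all cells, B cell markers stood at 23.7 and 104.7 CPM (2 and 3 of 7 at 0 UMIs), and 1 of them held 50 UMIs over both libraries. CD8 T cell markers stood at 11.7 and 10.2 CPM (1 of 2 at 0 UMIs in each library) and NK cell markers at 5.45 and 5.08 CPM (3 and 4 of 5 at 0). Macrophage and monocyte markers were at 213.5 and 240.5 CPM (8 and 5 of 11 at 0) and epithelial markers at 8.56 and 5.71 CPM (2 and 3 of 6 at 0). Depth and B cell markers thus moved with the host, and their part in the host ratios was not tested, except that with each cell thinned to 1000 UMIs the summed log2 ratio was 0.39. Barcodes with fewer than 100 UMIs, which hold free RNA, carried the 50 genes at 2997 and 4817 CPM, close to the level in cells; the part of free RNA was not tested.

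**Figure D1:**
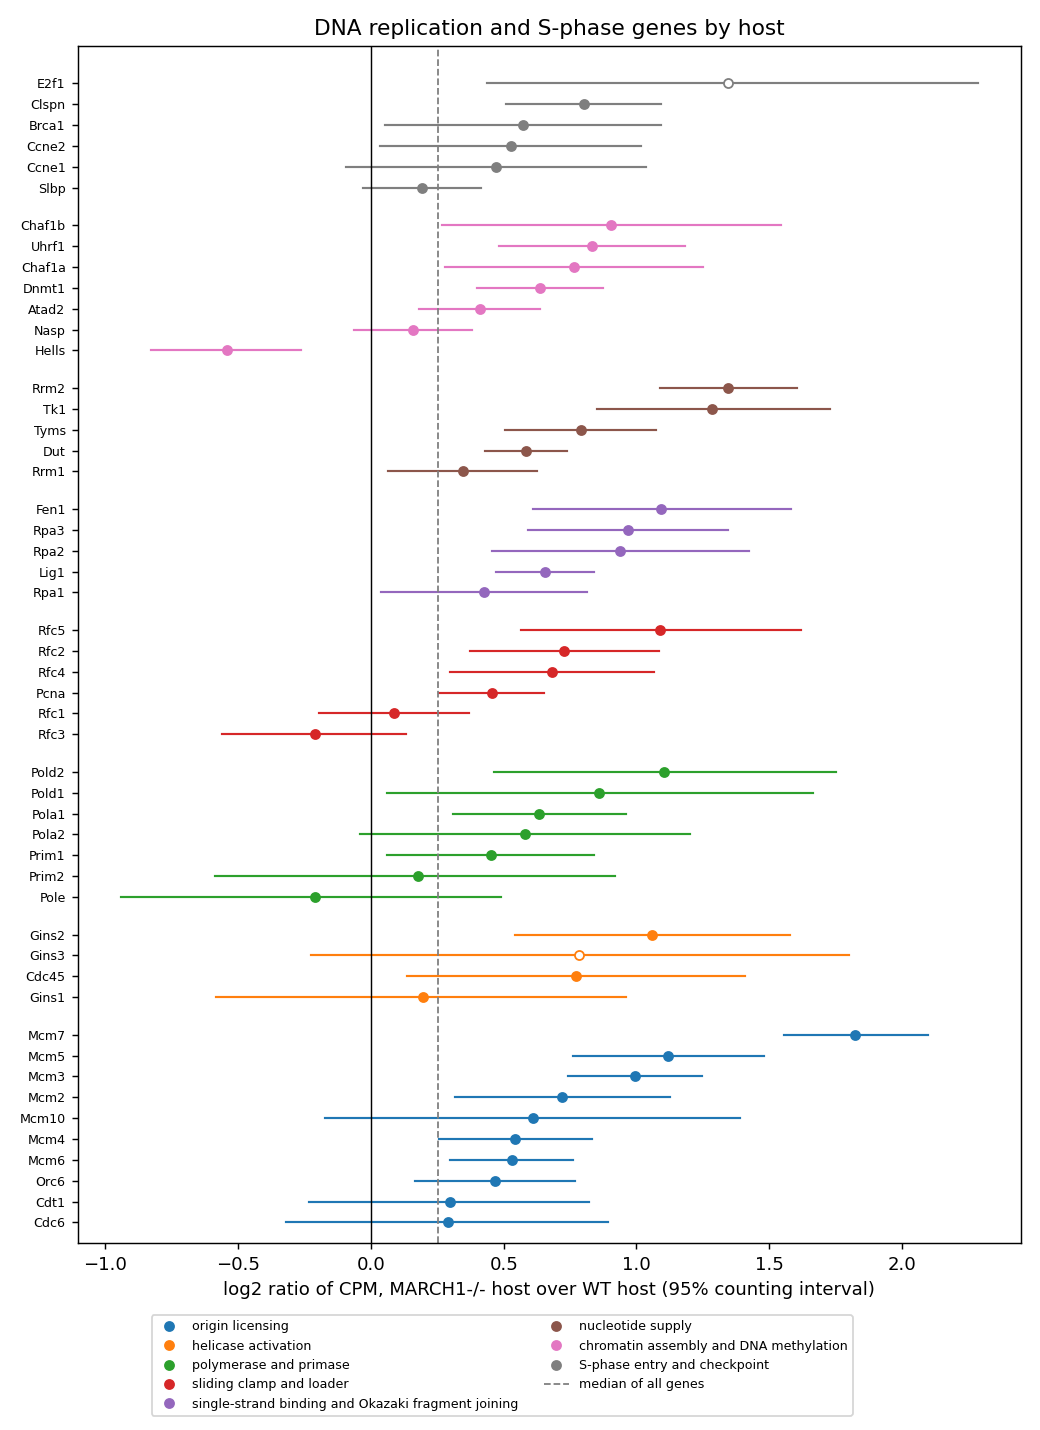
Each point is the log2 ratio of a gene's CPM in the MARCH1-/- host library over that in the WT-host library, with its 95% counting interval, grouped and coloured by role; open points are Gins3 and E2f1, under 50 UMIs, and the dashed line is the median of all genes at 0.25. Mcm7 lies farthest to the right at 1.82, and Hells is the gene whose interval lies below 0.

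By summed CPM, origin licensing had the highest ratio between hosts of the 8 roles; by its median gene (0.58) it stood below 5 others. Its 10 genes summed to 596 CPM with WT hosts and 1075 CPM with MARCH1-/- hosts, a log2 ratio of 0.85 (0.75 to 0.95). All 10 were higher, 5 of them at least 1.5-fold. Mcm7, a helicase subunit, was at 64.6 CPM (166 UMIs) and 228.5 CPM (360 UMIs), a log2 ratio of 1.82 (1.55 to 2.10). No other gene of the 48 stood as far from no difference. Mcm7 (ENSMUSG00000029730, chromosome 5, 138164583 to 138172422, GRCm38) shares 22.8% of the 50-base words of its last 500 bases with Gm5487 and overlaps the microRNA genes Mir25 and Mir93, so its count is uncertain to that extent. Without Mcm7, left out after the values were seen, the 9 other licensing genes summed to 532 and 846 CPM (0.67), below the sums of 3 other roles.

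The other helicase subunits differed less than Mcm7. Mcm5 was at 44.7 and 97.1 CPM (log2 ratio 1.12, 0.76 to 1.48) and Mcm3 at 93.3 and 186 CPM (0.99, 0.74 to 1.25). Mcm2 stood at 0.72, Mcm4 at 0.54 and Mcm6 at 0.53, all with intervals above 0. Subunits of 1 ring thus spanned log2 ratios from 0.53 to 1.82. The loaders Cdc6 (21.8 and 26.7 CPM, 56 and 42 UMIs) and Cdt1 (28.4 and 34.9 CPM, 73 and 55 UMIs) had ratios of 0.29 and 0.30, with intervals that include 0.

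Helicase activation and nucleotide supply were also higher. Cdc45 and the GINS genes summed to 60.7 and 104.1 CPM (log2 ratio 0.78, 0.45 to 1.10), led by Gins2 at 22.6 and 47.0 CPM (1.06). The 5 genes of nucleotide supply summed to 561 and 948 CPM (0.76, 0.65 to 0.86). Rrm2, the ribonucleotide reductase subunit that is limiting in S phase, was at 80.5 CPM (207 UMIs) and 204.4 CPM (322 UMIs), a log2 ratio of 1.34 (1.09 to 1.60). Its partner subunit Rrm1 was at 94.9 and 120.6 CPM, a ratio of 0.35 (0.06 to 0.63), so the intervals of the subunits do not overlap. The salvage enzyme Tk1, thymidine kinase, was at 29.2 and 71.1 CPM (1.28), Tyms, which makes thymidylate, at 78.6 and 135.8 CPM (0.79), and Dut, which clears dUTP, at 277.7 and 416.4 CPM (0.58).

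At the fork, genes for joining lagging-strand fragments and binding single strands stood at 334.5 and 555 CPM (log2 ratio 0.73, 0.59 to 0.87). Fen1, the flap endonuclease, was at 25.3 and 54.0 CPM (1.09) and Lig1, the ligase, at 190.6 and 300.2 CPM (0.66). Of the trimer that coats single strands, Rpa3 and Rpa2 were at 0.97 and 0.94 and Rpa1 at 0.43 (0.04 to 0.82); Rpa3 shares 22.4% of its 3′ words with Gm14766 and Gm6195, and an exon of Rpa1 overlaps Gm47300. Polymerase and primase genes summed to 190.2 and 276.7 CPM (0.54), from Pold2 at 1.10 to Pole at -0.21 (51 and 27 UMIs, -0.94 to 0.49).

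By summed CPM, the clamp and its loader differed least among the roles after chromatin genes (0.32), whose sum includes the lower Hells. By median gene, S-phase entry and checkpoint genes stood lowest (0.53), with the clamp and loader at 0.57 and chromatin genes at 0.64. Clamp and loader genes summed to 481.5 and 630 CPM (log2 ratio 0.39, 0.27 to 0.51). Pcna, the sliding clamp, was at 180.5 and 247.5 CPM (0.46). Loader subunits went different ways: Rfc5 was at 21.8 and 46.3 CPM (1.09), Rfc2 and Rfc4 at 0.73 and 0.68, Rfc1, the large subunit, at 102.7 and 109.2 CPM (0.09), and Rfc3 at 79.3 and 68.6 CPM (-0.21, -0.56 to 0.13). Rfc3 was below no difference as a value under the 10 alternative settings run for single genes, from -1.07 to -0.0028, though as reported its interval includes 0.

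Chromatin genes held the clearest exception. Hells, a chromatin remodeller needed for DNA methylation, was at 139.6 CPM (359 UMIs) with WT hosts and 95.8 CPM (151 UMIs) with MARCH1-/- hosts, a log2 ratio of -0.54 (-0.83 to -0.26). It was lower under the 10 alternative settings run for single genes (-0.91 to -0.41). Its partners in maintaining methylation went the other way: Uhrf1, which reads hemimethylated DNA, was at 51.7 and 92.0 CPM (0.83, 0.48 to 1.18), and Dnmt1, the maintenance methyltransferase, at 117.5 and 182.8 CPM (0.64, 0.40 to 0.88). Of the histone chaperones, Chaf1a and Chaf1b were at 0.77 and 0.90 and Nasp at 0.16 (-0.06 to 0.38). Hells (ENSMUSG00000025001, chromosome 19, 38930915 to 38971051, GRCm38) shared none of its 3′ words with other genes.

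S-phase entry and checkpoint genes summed to 318.9 and 443 CPM (log2 ratio 0.47, 0.33 to 0.62). Clspn, the checkpoint adaptor claspin, was at 75.1 and 130.7 CPM (0.80). The cyclins that drive entry, Ccne1 (23.3 and 32.4 CPM) and Ccne2 (29.9 and 43.2 CPM), were at 0.47 and 0.53, and Slbp, which binds histone mRNA, at 157.1 and 179.6 CPM (0.19, -0.03 to 0.42). E2f1 had 18 and 28 UMIs.

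Per cell, the genes were concentrated in a minority. They took a median of 0.122% of a cell's UMIs with WT hosts and 0.129% with MARCH1-/- hosts, with upper quartiles of 0.301% and 0.420% and a maximum of 1.56% in both. The median cell was thus alike in the libraries, and the upper part of the range was not: the 90th percentile was 0.705% against 1.06%. The top 10% of cells (35 and 16) held 52.2% and 49.4% of the UMIs of these genes.

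Cells in which these genes made up at least 0.5% of UMIs are called S-phase-high. This is a range of a continuous share, not a cell type: 18 and 5 cells lay from 0.4% to 0.5%, and 11 and 0 from 0.5% to 0.6%. S-phase-high were 55 of 352 cells from WT hosts (15.6%, exact binomial interval 12 to 19.8) and 36 of 156 from MARCH1-/- hosts (23.1%, 16.7 to 30.5). At 1% of UMIs it was 10 cells (2.84%, 1.37 to 5.16) against 20 cells (12.8%, 8.01 to 19.1), and at 0.25% it was 28.4% against 32.1%. With every cell thinned to 1000 UMIs (11 and 0 shallower cells left out) the shares at 0.5% were 18.8% and 26.9%, and at 1% they were 3.52% and 11.5%. These intervals count cells of 1 library each and do not cover the spread between animals, so they do not test the hosts.

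**Figure D2:**
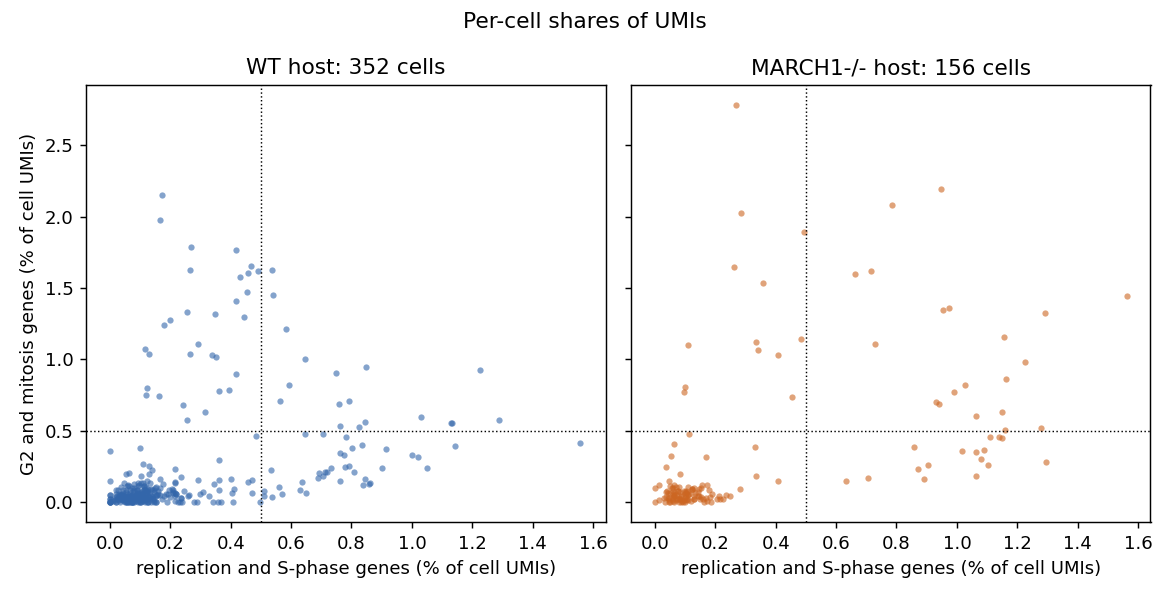
Each point is a cell, placed by the percent of its UMIs from the 50 replication and S-phase genes (x axis) and from 41 G2 and mitosis genes (y axis), with WT-host cells at left and MARCH1-/- host cells at right; dotted lines mark 0.5% on both axes. Most cells lie near the origin, and at or beyond 1% on the x axis there are 10 cells at left and 20 at right.

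S-phase-high cells carried 63.5% (WT hosts) and 77.9% (MARCH1-/- hosts) of these genes' UMIs. In CPM of the whole library they gave 2027 and 3772, and the other cells 1167 and 1070. Within S-phase-high cells the genes were at 7781 and 10050 CPM (log2 ratio 0.37, 0.32 to 0.42), and within the others at 1578 and 1713 CPM (0.12, 0.03 to 0.20). The cells were chosen by the sum of these genes, so the gap between the classes is set by the choice, and the limit of 0.5% also caps how far the other cells can differ between hosts. Where the host difference lies is therefore not read from these values. B cell markers were at 25.4 and 132.0 CPM in S-phase-high cells and at 23.1 and 88.4 CPM in the others. In S-phase-high cells 3 cells held 15 of the 17 B cell marker UMIs with WT hosts and 49 of the 78 with MARCH1-/- hosts.

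Gene by gene, within S-phase-high cells, 38 of the 44 genes with at least 50 UMIs there were higher in the MARCH1-/- host library and 6 lower, against 65.0% of 3357 genes higher; relative to the median gene 27 were higher. At least 1.5-fold higher were 13, near the 27.2% of all genes, and at least 1.5-fold lower were 2, against 11.4%. The median was 0.42, against 0.25 for all genes. In the other cells 15 of 27 genes were higher, 4 of them at least 1.5-fold against 25.4% of 5710 genes, and 2 were at least 1.5-fold lower against 8.23%; their median was 0.15 against 0.24. Relative to the median gene, 8 of 27 were higher in these cells, whose level the choice of cells caps.

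Mcm7 and Hells kept their direction in both classes of cells. Mcm7 was at 185.2 and 509 CPM in S-phase-high cells (log2 ratio 1.46) and at 22.1 and 59.9 CPM in the others (1.44). Hells was at 395.7 and 214.9 CPM (-0.88) and at 49.4 and 24.4 CPM (-1.02). Among the others, Mcm7 differed by their share of G2 and mitosis genes. Where these made up at least 0.5% of UMIs, Mcm7 was at 45.9 and 176.4 CPM (17 and 46 UMIs). Below 0.5% it was alike between hosts, at 16.3 and 18.0 CPM (25 and 13 UMIs). Rrm2 was at 232.9 and 494 CPM in S-phase-high cells (1.08) but at 26.8 and 30.5 CPM in the others (0.18). Whether the ratio of Rrm2 differs between the classes was not tested.

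When cells were classed by the other 49 genes, each of the 48 genes was at least 2.0-fold higher in S-phase-high than in other cells in both libraries. By the class of all 50 genes, 11.7% of 5158 and 13.9% of 4288 genes outside the list were at least 1.5-fold higher. Their share at 2.0-fold was not counted. Cdc6 stood at log2 ratios of 5.65 and 6.09, from few UMIs in other cells (3 and 1 by the class of all 50 genes), and Rfc2, among the lowest, at 1.29 and 1.14. Across the 352 and 156 cells, correlations of a gene's level with the share of the other 49 ran from 0.17 (Pold2) to 0.59 (Rrm2) in the WT-host library, and from 0.16 (Gins3) to 0.81 (Mcm3) in the other. These are descriptions of cells that share a library and differ in depth.

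S-phase-high cells were split by whether 41 genes of G2 and mitosis also made up at least 0.5% of UMIs. S-phase-high alone were 37 and 16 cells, high in both 18 and 20, high in G2 and mitosis alone 31 and 13, and low in both 266 and 107. Cells high in both made up 5.11% (3.06 to 7.96) of WT-host and 12.8% (8.01 to 19.1) of MARCH1-/- host cells. Shares of cells high in S-phase genes alone (10.5% and 10.3%) and in G2 and mitosis genes alone (8.81% and 8.33%) were close to each other.

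Genes differed in how far their level held into G2 and mitosis. From cells high in S-phase genes alone to cells high in G2 and mitosis genes alone, the median gene went to 36.8% (WT hosts) and 32.0% (MARCH1-/- hosts) of its level. The overall drop is set by how the cells were classed; the order of the genes is a description. Under 25% in both libraries were 6 of 48: Ccne1, Ccne2, Cdc6, Mcm4, Rfc3 and Hells. Over 60% in both were 3: Rfc5, Rpa3 and Rrm1.

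The cyclin E genes and Cdc6 were at or near 0 in cells high in G2 and mitosis genes alone, which were chosen to be low in S-phase genes. Ccne1 went from 102.3 and 85.3 CPM (44 and 21 UMIs) to 0 UMIs in both libraries, which allows up to 8.10 and 11.5 CPM at 3 counts. Ccne2 went from 52 and 30 UMIs to 2 and 0, and Cdc6 from 39 and 21 UMIs to 1 and 1. In cells high in both they were present, with Ccne1 at 37.6 and 75.4 CPM, Ccne2 at 54.3 and 107.3 CPM and Cdc6 at 58.5 and 58.0 CPM. Rrm1 in contrast was at 225.5 and 174.6 CPM in cells high in S-phase genes alone and at 159.2 and 141.9 CPM in cells high in G2 and mitosis genes alone. By role, S-phase entry and checkpoint genes kept 32.1% and 18.9% of their level, licensing 25.2% and 30.4%, and nucleotide supply 58.3% and 42.3%.

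**Figure D3:**
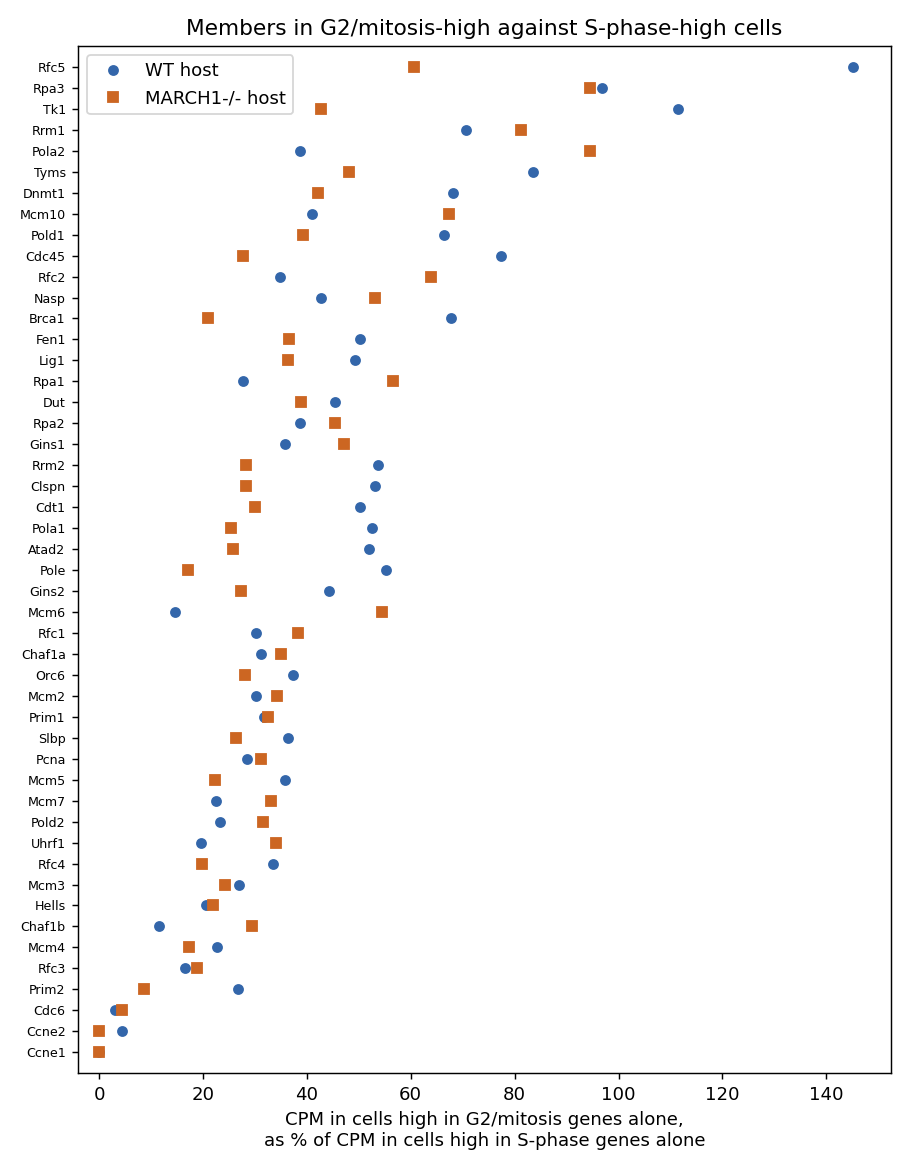
For each of the 48 genes, the x axis gives its CPM in cells high in G2 and mitosis genes alone as a percent of its CPM in cells high in S-phase genes alone, as a circle for the WT-host and a square for the MARCH1-/- host library. Ccne1, Ccne2 and Cdc6 lie nearest 0 in both libraries, and Rfc5, Rpa3 and Rrm1 lie above 60% in both.

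Hells was lower with MARCH1-/- hosts in each class of cells. In cells high in S-phase genes alone it was at 404.4 and 296.5 CPM, and in cells high in both at 380 and 156.6 CPM (91 and 54 UMIs). In cells high in G2 and mitosis genes alone it was at 83.7 and 65.2 CPM, and where neither was high at 41.2 and 9.67 CPM (63 and 7 UMIs). Within the MARCH1-/- host library cells high in S-phase genes alone had a log2 ratio of 0.92 (0.39 to 1.46) over cells high in both, and within the WT-host library 0.09 (-0.28 to 0.47). The difference between these ratios was not tested.

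Other genes of the pathway went the same way as the list. Of 60 further replication genes, 51 had at least 50 UMIs, and 46 were higher in the MARCH1-/- host library, 27 of them at least 1.5-fold, and 5 lower, 1 at least 1.5-fold. Of all genes 68.0% were higher, 25.6% at least 1.5-fold, and 8.3% were at least 1.5-fold lower. Above the median gene lay 38 of the 51. Their sum was at 1970 and 2848 CPM (log2 ratio 0.53, 0.47 to 0.59) and their median at 0.63. Within a library, 34 had at least 50 UMIs for a comparison of S-phase-high with other cells: 31 were higher in S-phase-high cells in the WT-host library, 30 of them at least 1.5-fold (11.7% of 5158 genes outside the list), and 33 in the MARCH1-/- host library, 32 at least 1.5-fold (13.9% of 4288). Of all genes outside the list, 2201 of 5158 and 1854 of 4288 were higher in S-phase-high cells. Tipin, a fork protection factor, was at 149.3 against 22.1 CPM and at 213.2 against 33.5 CPM. Gmnn, the Cdt1 inhibitor geminin, was at 179.2 against 39.4 CPM and 309.6 against 55.9 CPM. Pold4, the small polymerase delta subunit, was lower in S-phase-high cells, at 34.3 against 59.4 CPM and 37.2 against 101.6 CPM.

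Of 2883 genes outside the list with at least 200 UMIs, the 10 whose level per cell followed the share of the 50 most closely were Pclaf (mean Pearson correlation within the libraries 0.81, over 352 and 156 cells), Tipin (0.69), Ncapg2 (0.69), Stmn1 (0.68), Asf1b (0.68), Smc2 (0.67), Gmnn (0.66), Top2a (0.64), Mki67 (0.62) and Hist1h1b (0.62). Pclaf encodes a protein that binds the Pcna clamp.

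G2 and mitosis genes were higher in the MARCH1-/- host library too, at 3348 and 5194 CPM (log2 ratio 0.63, 0.59 to 0.68), with 39 of 41 higher, and 34 relative to the median gene. Histone genes did not go one way. The clustered histone genes, whose mRNA is made in S phase, were at 6598 and 4618 CPM (-0.51, -0.55 to -0.48), with 14 of 29 higher and 15 lower. Hist1h2ap was at 2972 and 760 CPM and Hist1h2ae at 1070 and 276.7 CPM, while the linker histone Hist1h1b was at 514.6 and 1363 CPM. In S-phase-high cells the clustered histones stood at 14000 and 8972 CPM. Most clustered histone mRNA lacks the poly(A) tail that this assay primes from, and near-identical copies share reads, so single histone genes are uncertain. Replication-independent variants such as H2afz (1237 and 2183 CPM) summed to 2277 and 3422 CPM (0.59).

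By summed CPM, helper T cell programs were lower, not higher, in S-phase-high cells than in other cells of the same library. The 50 replication and S-phase genes were left out of this comparison, and the median gene was at a log2 ratio of -0.10 in both libraries; at least 1.5-fold lower were 20.1% of 5158 genes in the WT-host and 21.6% of 4288 in the MARCH1-/- host library. Th2 identity genes summed to 1754 against 2985 CPM in the WT-host library (-0.77, -0.86 to -0.68) and 1194 against 2364 CPM in the MARCH1-/- host library (-0.98, -1.11 to -0.86). Of those with 50 UMIs, 6 of 9 and 6 of 8 were at least 1.5-fold lower in S-phase-high cells. Calca, which encodes the neuropeptide CGRP, was at 7.47 against 147.3 CPM and 6.77 against 66.0 CPM, from few UMIs in S-phase-high cells. Gata3, the transcription factor that sets Th2 fate, was at 276.2 against 373.4 CPM and 292.7 against 462 CPM, so the level of the factor differed less than that of Calca.

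The other helper programs were lower in sum as well. Th17 genes were at 115 against 293 CPM (log2 ratio -1.35) and 57.5 against 337 CPM (-2.55). Th1 genes were at 499 against 860 CPM (-0.79) and 381 against 769 CPM (-1.01). Ccl5, a chemokine of effector cells, was at 12 against 129.9 CPM and 3.38 against 58.9 CPM, from few UMIs in S-phase-high cells. Treg genes were at -0.40 and -0.86 and Tfh genes at -0.57 and -0.31. Of those with 50 UMIs, 1 of 5 and 2 of 4 Treg genes were at least 1.5-fold lower, and 3 of 4 and 0 of 3 Tfh genes. The median Tfh gene with MARCH1-/- hosts was at -0.16, near the median of all genes (-0.10).

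Summed genes of T cell state were lower too. Inhibitory receptors with Tox were at 891 against 1363 CPM (-0.61) and 925 against 1634 CPM (-0.82), and antigen-signal genes such as Nr4a1 and Cd69 at -0.85 and -0.92. Every gene of these lists with 50 UMIs was lower (7 and 5 inhibitory, 7 and 6 antigen-signal genes). Of all genes outside the 50, 2957 of 5158 and 2434 of 4288 were lower. Naive and memory genes were at -0.65 and -0.63 in sum, but 3 of 7 and 3 of 8 were higher in S-phase-high cells. Il7r, the receptor for a survival cytokine, was at 95.6 against 380.8 CPM and 94.7 against 451 CPM. Klf2, a factor of recirculating cells, was among the higher ones, at 152.3 against 83.6 CPM and 323.1 against 277.3 CPM. Without Il7r, left out after the values were seen, the other 7 genes summed to 361.3 against 337.6 CPM (0.10) and 729 against 821 CPM (-0.17), so the sum's direction with WT hosts rested on Il7r. CD4 T cell markers, all 12 of them detected, were at 3618 against 5134 CPM (-0.50) and 5165 against 7132 CPM (-0.47), and all 12 were lower in S-phase-high cells of both libraries. S-phase-high cells also held more UMIs, a median of 11540 against 5212 and 14860 against 6919; the part of depth in these ratios was not tested, but with each cell weighted equally the 8 lists other than type 2 cytokines were again lower in both libraries (from -0.14 for Tfh genes to -2.14 for Th17 genes, both with MARCH1-/- hosts).

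**Figure D4:**
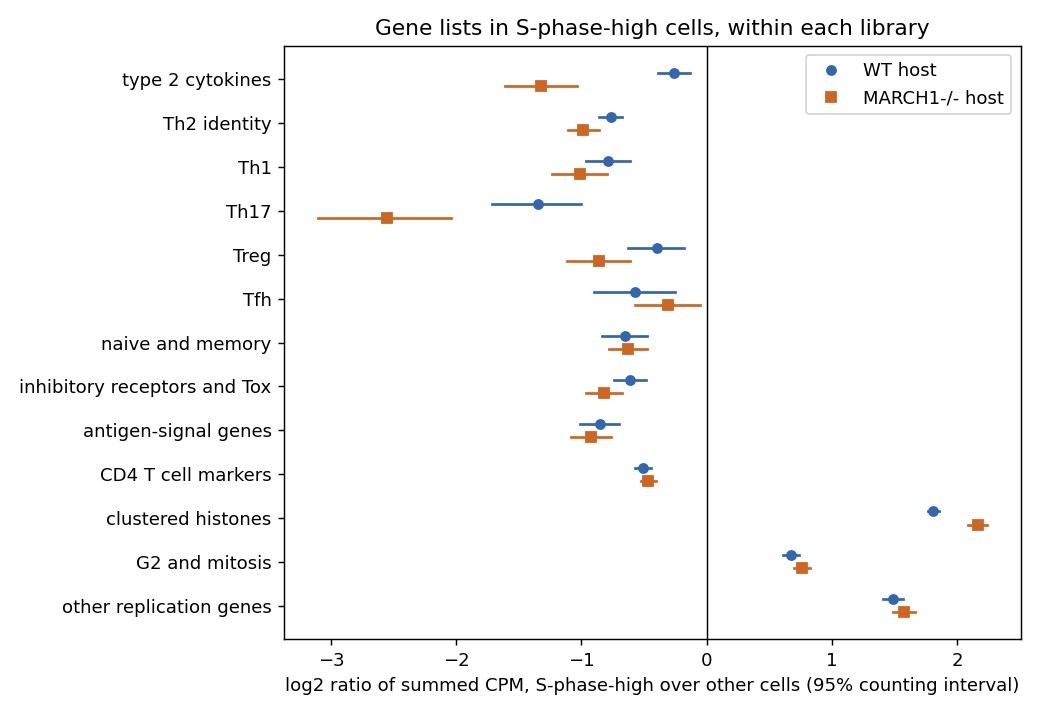
Points give the log2 ratio of a gene list's summed CPM in S-phase-high over other cells, with 95% counting intervals, as circles for the WT-host and squares for the MARCH1-/- host library. The 9 T cell programs and the CD4 T cell markers lie left of 0 in both libraries, and histone, G2 and further replication genes lie right of it.

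With WT hosts the direction of the type 2 cytokine ratio depended on the setting. The other programs were recomputed with equal weights and as shares of thinned cells only, so the programs are not ranked by this. Il4, Il5 and Il13 summed to 973.5 CPM (652 UMIs) in S-phase-high and 1168 CPM (2221 UMIs) in other cells of the WT-host library, a log2 ratio of -0.26 (-0.39 to -0.14). In the MARCH1-/- host library they were at 216.6 CPM (128 UMIs) against 540 CPM (532 UMIs), a ratio of -1.32 (-1.61 to -1.04). In S-phase-high cells from WT hosts 3 cells held 485 of the 652 UMIs, and from MARCH1-/- hosts 3 held 73 of 128. Without these 3 cells, an alternative chosen after the values were seen, the ratios were -2.13 and -2.44; the other cells kept their own highest cells, so this could only lower the ratio. With each cell weighted equally the WT-host ratio turned to 0.50, while the MARCH1-/- host ratio was -0.74; thinned, they were 0.55 and -0.47.

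Single cytokines differed. Il4 was lower in S-phase-high cells of both libraries, at 92.6 against 217.7 CPM and 40.6 against 90.4 CPM. Il13 was at 709 against 813 CPM and 162.4 against 431.7 CPM. Il5 was at 171.7 against 137.3 CPM in the WT-host library and 13.5 against 18.3 CPM (8 and 18 UMIs) in the other. By class of cells in the WT-host library, the 3 cytokines were at 1346 CPM where S-phase genes alone were high, 305 CPM where both were high (8 of 18 cells with any), 1441 CPM where G2 and mitosis genes alone were high and 1102 CPM where neither was. In the MARCH1-/- host library the same classes stood at 398, 87.0, 72.9 and 709 CPM. A few cells held much of this. In the same order of classes, 3 cells held 469 of 579, 66 of 73, 343 of 534 and 537 of 1687 UMIs with WT hosts. With MARCH1-/- hosts 3 cells held 71 of 98, 23 of 30, 14 of 19 and 188 of 513.

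S-phase-high cells were found among cells with and without a type 2 cytokine UMI. With cells thinned to 1000 UMIs for the cytokine call, they made up 11 of 80 cells with a UMI (13.8%, 7.07 to 23.3) and 44 of 261 without (16.9%, 12.5 to 22.0) in the WT-host library, and 5 of 27 (18.5%, 6.30 to 38.1) against 31 of 129 (24.0%, 17.0 to 32.3) in the other. These intervals overlap. Called on all UMIs, the order turned, at 19% against 13.5% and 26.3% against 21.2%. Cells with a UMI were the deeper ones under both calls (on all UMIs, median 7987 against 4828 and 10010 against 6430 UMIs). No order is read from these shares.

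Among thinned cells with a UMI of Foxp3, the Treg factor, 0 of 12 and 1 of 12 were S-phase-high, and among those with an Ifng or Tbx21 UMI 5 of 22 and 0 of 6. With a Pdcd1 UMI it was 5 of 54 (9.26%, 3.08 to 20.3) and 3 of 26 (11.5%, 2.45 to 30.2), against 17.4% and 25.4% without, with overlapping intervals. On all UMIs the Pdcd1 shares were 16.3% with and 14.8% without in the WT-host library, and 23.1% in both sets of cells of the other. No order is read from them. Barcodes with fewer than 100 UMIs held the type 2 cytokines at 670 and 233 CPM; the part of free RNA in these calls was not tested.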

How the data were processed

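The deposited tables hold raw UMI counts per gene and barcode for 2 libraries, 1 per host, with no cell call. Per the labels' protocols they were made with the 10x 3′ kit v3.1. The submitters' processing notes name Cell Ranger 3.1.0 and mm10, but the matrix header Cell Ranger 4. From these counts, barcodes with at least 500 UMIs, at least 250 genes and at most 10% of UMIs from mt- genes were kept as cells (352 and 156). UMIs were summed over cells and scaled to counts per 1000000 (CPM). Intervals are exact Poisson, conditional binomial and Clopper-Pearson at 95%. No test was possible with 1 library per group. Genes were compared from 50 UMIs, with 1.5-fold as the limit, and cells were thinned to 1000 UMIs in 1 draw (seed 1). Scrublet (in scanpy 1.11.5) called 16 and 5 doublets, 5 and 2 of them S-phase-high; they stayed in, and an alternative left them out. The interval script was tested on simulated data. Positions come from GENCODE M21 (GRCm38, 50 of 50 genes matched by ID). All members could be named; other genes only from the lists, or as the 10 most correlated. Members and lists were chosen with earlier results of these data known. Scripts ran under Python 3.11.15 with scipy 1.17.1 and numpy 2.4.6.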

Additional observations from a re-analysis of the deposited data

Results flagged for a closer look

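The replication and S-phase genes also showed in barcodes that the report leaves out. In the WT-host library barcodes with fewer than 100 UMIs, 222660 of them with 1084884 UMIs, held these genes at 2997 CPM (2895 to 3101), and in the MARCH1-/- host library 158447 such barcodes held them at 4817 CPM (4582 to 5061). Both lie near the level in cells (3194 and 4842 CPM), with the same order of hosts. Barcodes over the mitochondrial limit held them at 4234 CPM (3789 to 4718; 72 barcodes, 18 of them S-phase-high) in the WT-host library and at 3889 CPM (3213 to 4664; 25 barcodes, 7 of them S-phase-high) in the other, with overlapping intervals.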

How the results depend on the processing

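Of 86 recomputed values, 56 kept their direction and stayed near the reported value, 26 moved and 4 turned. The summed host ratio (0.60) stayed above 0 in its 10 alternatives: 0.48 with cells weighted equally, 0.39 thinned, 0.50 without ribosomal protein genes in the total, 0.35 centred on the median gene and 0.65 without the 5% of cells highest in these genes. The median (0.62) was 0.48, 0.23, 0.52 and 0.37 under the first 4 of these. Genes at least 1.5-fold higher fell from 25 to 0 thinned, when 8 genes had enough UMIs, and to 13 centred. Genes at least 1.5-fold lower went from 0 to 1 under those 4 and without the mitochondrial limit. S-phase-high shares were 28.4% and 32.1% at 0.25% of UMIs, and 2.84% and 12.8% at 1%. The type 2 cytokine ratio of the WT-host library (-0.26) turned to 0.50 with cells weighted equally, 0.55 thinned, 0.40 without the 5% of cells with most UMIs and 0.024 when the 3 genes with most UMIs were left out of the threshold; it was -3.61 at 1% of UMIs and -2.13 without 3 S-phase-high cells (left out on that side alone). The MARCH1-/- host ratio (-1.32) was -0.74, -0.47, -1.78 and -2.44 with equal weights, thinned, at 1% and without 3 cells. The causes were not tested; thinning both leaves fewer UMIs and weights cells equally. No paired analysis was possible because each group has 1 library. Depth limits genes under 50 UMIs, and cells at 0 UMIs are not shown to lack a gene.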
